A study of Mus musculus with 2 samples.

Results

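The set described here is 10 genes of flow response and vessel tone among the 27998 genes of a single-cell RNA series from mouse aorta. They were taken by name from both count tables. The set holds the transcription factors Klf2 and Klf4, nitric oxide synthase Nos3 and the endothelin genes Edn1, Ece1 and Ednrb. It also holds the prostanoid enzymes Ptgs1 and Ptgis, the natriuretic peptide receptor gene Npr3 and the guanylate cyclase subunit gene Gucy1a3. All 10 had at least 1 UMI (unique molecular identifier, a tag that marks 1 captured transcript) in each library. The study profiled C57BL6/J mice at 2 ages, 8 weeks (young) and 18 months (old), with 1 library per age and no treatment or transgene in the labels. Cells came from aortas cleared of adventitia whose endothelium was loosened with trypsin and scraped off, and their transcripts were counted from the 3′ end with a droplet method. With 1 library per age there is no replicate and no test between ages. All 95% intervals are exact and cover counting error only, and "higher" and "lower" compare these libraries, not the ages at large.

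Blood flowing along the vessel wall acts on sensors of endothelial cells, and through a kinase cascade that ends in MEF2 factors steady flow keeps the zinc-finger factors KLF2 and KLF4 on. These factors raise the nitric oxide synthase eNOS (encoded by Nos3) and hold down endothelin-1 (Edn1), so that dilating and constricting signals are set together. Nitric oxide acts through soluble guanylate cyclase, of which Gucy1a3 encodes a subunit, in the smooth muscle underneath. Endothelin-1 is cut to its active form by ECE1 (Ece1) and binds the receptors encoded by Ednra and Ednrb, and prostacyclin, a dilator, is made by COX-1 (Ptgs1) and prostacyclin synthase (Ptgis).

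The young library held 1366 barcodes and 12576023 UMIs (median 7558.5 per barcode), and the old library 3408 barcodes and 19171045 UMIs (median 4737). After filters, 1359 young and 3330 old cells were clustered without the 10 genes and without the genes of their pathways. Endothelial-like (EC-like) cells, named from Pecam1, Cdh5 and other markers, numbered 1081 young and 2388 old, and all 8 endothelial markers were seen in both libraries with summed levels of 9032 and 9013 CPM (UMIs scaled to a class total of 1000000). Different clusters held them in each library: clusters 0 and 1 held 583 and 410 of the young cells, and clusters 5, 8 and 9 held 995, 495 and 858 of the old. Fibroblast-like cells numbered 239 young and 572 old, and macrophage-like cells 13 and 155. Doublet calls marked 0.440% of young and 0.180% of old barcodes, too few for the caller to have worked, and 11 barcodes occurred in both libraries.

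The promoters of Klf2, Klf4 and Edn1 are shown because these 3 genes carry the main pattern of the data: in single EC-like cells Klf2 and Klf4 varied together and Edn1 varied against them. Each line gives the 250 bases before the transcript start in RefSeq (GRCm38.p6), 5′ to 3′ on the gene's own strand. Capitals mark matches, on either strand, to a MEF2 motif (CTA and TAG with any 4 bases between them), to the CACCC core bound by KLF factors, or to the ACGTG core of the hypoxia response element.
Klf2, chr8:72318812-72319061, plus strand: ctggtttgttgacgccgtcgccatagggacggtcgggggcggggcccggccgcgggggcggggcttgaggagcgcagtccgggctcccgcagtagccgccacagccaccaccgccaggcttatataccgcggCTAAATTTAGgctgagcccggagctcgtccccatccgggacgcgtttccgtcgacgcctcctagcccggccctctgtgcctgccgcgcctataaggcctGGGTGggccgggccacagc
Klf4, chr4:55532476-55532725, minus strand: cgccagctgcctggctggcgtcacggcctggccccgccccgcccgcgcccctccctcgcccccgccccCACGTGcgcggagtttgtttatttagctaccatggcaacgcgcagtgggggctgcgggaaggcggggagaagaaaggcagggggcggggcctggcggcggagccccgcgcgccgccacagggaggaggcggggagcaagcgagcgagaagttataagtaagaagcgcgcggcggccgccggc
Edn1, chr13:42301226-42301475, plus strand: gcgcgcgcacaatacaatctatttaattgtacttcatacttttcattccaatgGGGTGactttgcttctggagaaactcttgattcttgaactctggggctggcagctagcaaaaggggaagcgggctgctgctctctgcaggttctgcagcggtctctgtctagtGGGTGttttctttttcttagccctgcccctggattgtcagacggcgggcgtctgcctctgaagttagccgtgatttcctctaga

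The Klf2 window held the palindrome CTAAATTTAG, a MEF2 match that starts 118 bases before the transcript start. A MEF2 match was present in 3.20% of the 32851 mouse promoter windows of the same length. The same Klf2 window held 1 CACCC match on the opposite strand, a motif found in 52.0% of all windows. The Klf4 window held neither motif, and its only capitals are a CACGTG in which the ACGTG core, found in 16.6% of windows, reads on both strands. The Edn1 window held 2 CACCC matches on the opposite strand, starting 197 and 84 bases before the start, and no MEF2 match. None of the 3 windows held an AP-1 (TGANTCA, 6.75% of windows) or GATA (GATAA, 22.6%) match. Their GC contents were 71.2% for Klf2, 74% for Klf4 and 50.4% for Edn1. These matches describe letters in a window, not sites in use. Of the 10 genes, 8 had an entry in the promoter table, and Nos3 and Ptgis had none.

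In GENCODE vM21 on GRCm38, Klf2 lies on chromosome 8 (72319033 to 72321656, plus strand), Klf4 on chromosome 4 (55527143 to 55532466, minus) and Edn1 on chromosome 13 (42301476 to 42307990, plus). This Klf2 start lies before the RefSeq start used for the window above, which ends at 72319061. The end of that window, with its CACCC match, is thus inside the GENCODE gene. Nos3 lies on chromosome 5 (24364810 to 24384474, plus) and Gucy1a3, named Gucy1a1 in that annotation, on chromosome 3 (82092427 to 82145789, minus). Exons of Nos3 overlap 2 genes of the other strand, Atg9b (21 young and 38 old UMIs) and Gm15587 (33 and 19), against 3301 and 4615 Nos3 UMIs in EC-like cells. No stretch of 50 bases in the last 500 bases of any of the 10 genes recurred in transcripts of another gene.

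Among the named classes with at least 20 cells, Nos3, Edn1 and Ece1 were highest in EC-like cells and Klf4 in fibroblast-like cells, and most Ednrb of the old library lay in macrophage-like cells. The unnamed cluster, which carries endothelial markers beside erythroid, lymphatic and platelet genes, held Edn1 at 170 CPM (138 to 208) in 81 old cells and 659 CPM (521 to 821) in 16 young ones, no lower than EC-like cells. Levels are given young first. Nos3 measured 328 and 327 CPM in EC-like cells and 19.9 and 33.3 CPM in fibroblast-like cells. That is 6.07% and 10.2% of its EC-like level, and the 8 endothelial markers stood at 2.98 to 24.7% (young) and 9.13 to 24.9% (old) of theirs. The Nos3 UMIs of fibroblast-like cells thus lie within the range of endothelial markers there, and no Nos3 expression is read from them; the part of free RNA was not tested. Edn1 gave 355 and 162 CPM in EC-like cells against 54.9 and 49.2 CPM in fibroblast-like cells. In the old library this was 30.4% of the EC-like level, above all 8 markers. In the young library it was 15.5%, within their range and above their median.

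Klf2 was seen in every class of at least 20 cells, and among the named ones was highest in EC-like cells. It gave 2667 and 2388 CPM in EC-like cells, 926 and 997 CPM in fibroblast-like cells, 1234 CPM in old macrophage-like cells and 1457 CPM in old T or NK-like cells. Klf4 gave 536 and 405 CPM in EC-like cells and 988 and 1079 CPM in fibroblast-like cells, so the fibroblast-like level was above the EC-like level in both libraries, with intervals that do not overlap. It was 431 CPM in old macrophage-like and 143 CPM in old T or NK-like cells. The prostanoid enzymes were also seen in fibroblast-like cells: Ptgis stood at 521 and 423 CPM in EC-like and 269 and 329 CPM in fibroblast-like cells, and Ptgs1 at 355 and 322 against 222 and 257 CPM. These are 51.7 and 77.7% of the EC-like level for Ptgis and 62.4 and 79.8% for Ptgs1, above all 8 endothelial markers. By CPM Ptgis was highest in the 11 old smooth muscle-like cells, with 61 UMIs (932 CPM, 713 to 1197). In fibroblast-like cells Ece1 was at 14.3 and 19.8% of its EC-like level, inside the range of the markers.

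Ednrb, the endothelin receptor that in vessels is known from endothelium, gave 1 UMI in the 1081 young and 10 UMIs in the 2388 old EC-like cells, each in a cell of its own. The 155 old macrophage-like cells gave 112 Ednrb UMIs, 88.9% of the old library's Ednrb, at 146 CPM (120 to 176) against 0.708 CPM (0.339 to 1.30) in EC-like cells. The UMIs lay in 50 of the 155 cells (32.3%), 27 of these cells held 2 or more, and the highest held 7. Thinned to 3100 UMIs per cell, 20.9% of the macrophage-like and 0.274% of the EC-like cells held an Ednrb UMI. In the young library the 13 macrophage-like cells gave 3 Ednrb UMIs, all in 1 cell. Ednra, the other endothelin receptor, had 0 UMIs in EC-like cells of both libraries, which allows up to 0.298 CPM in young and 0.212 CPM in old. Npr3, the clearance receptor for natriuretic peptides, gave 8 UMIs in each library, 3 of them in EC-like cells, so its level could not be compared.

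**Figure D1:**
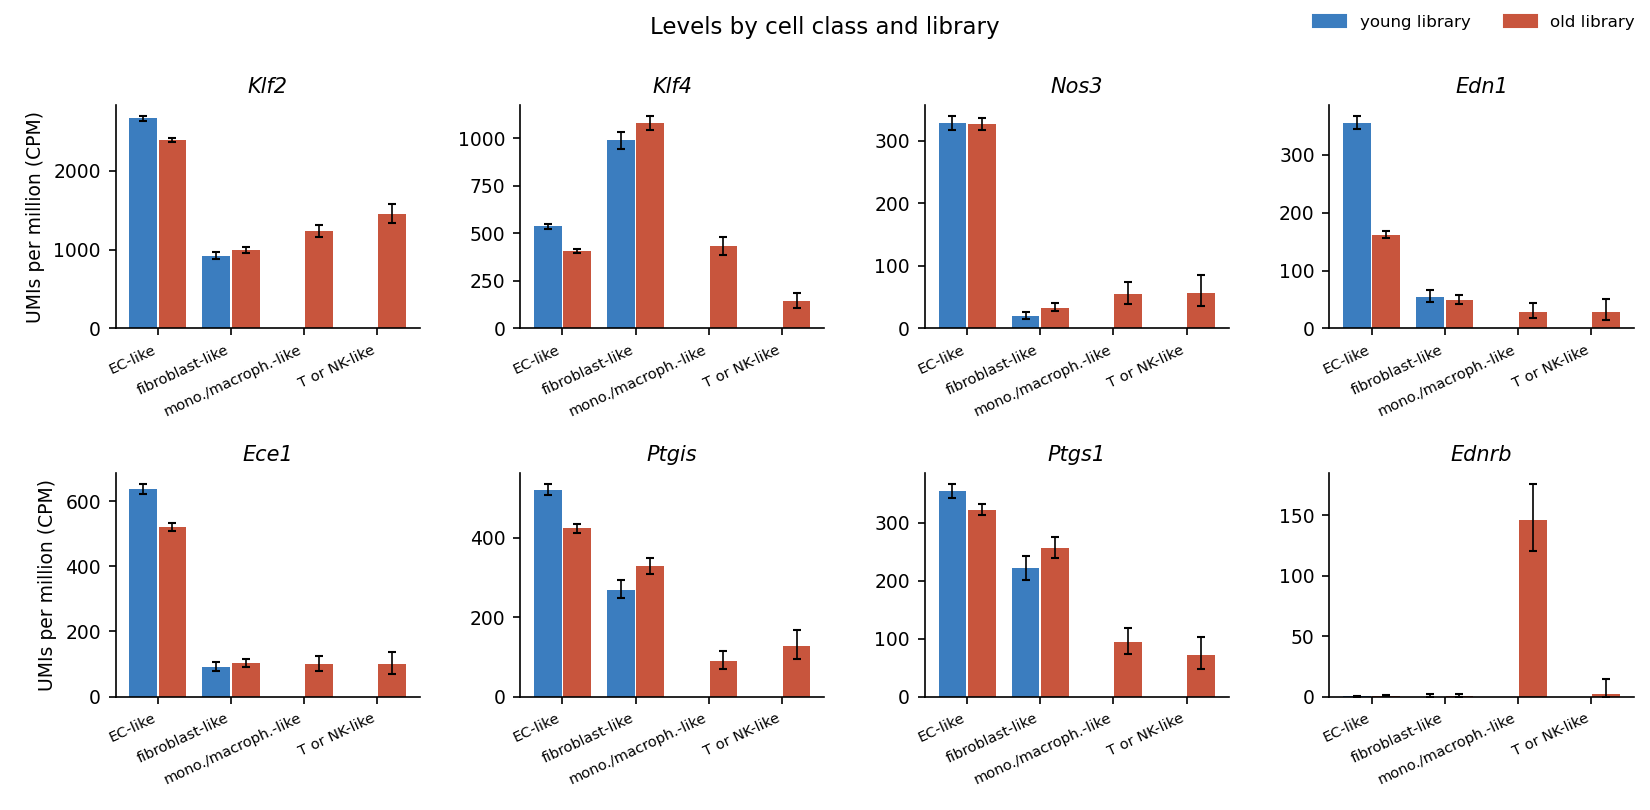
Levels of 8 genes by cell class in the young (blue) and old (red) library, in CPM. Bars are sums over the cells of 1 library, error bars are exact Poisson 95% intervals, and classes with under 20 cells in a library are not drawn. Of the classes drawn, Nos3, Edn1 and Ece1 stand highest in EC-like cells, Klf4 in fibroblast-like cells, and Ednrb (146 CPM) in old macrophage-like cells.

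In EC-like cells the constrictor Edn1 was the 1 gene of the set at least 2-fold lower in the old library, and Gucy1a3 the 1 gene at least 2-fold higher, with intervals clear of 0 on the log2 scale. Of the 10 genes, 8 had at least 100 UMIs in both libraries together, the level needed to be counted. Over all 10025 genes with that many UMIs, 2% were at least 2-fold lower and 1.32% at least 2-fold higher. On the log2 scale the old over young ratio had a median of -0.23 over the 8 genes and 0.06 over all genes.

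Klf2 and Klf4 were both lower in the old library, by less than 2-fold. Klf2 had a log2 ratio of -0.16 (-0.18 to -0.14) and Klf4 of -0.40 (-0.46 to -0.35). At equal depth, 99.1% of young and 98% of old EC-like cells held a Klf2 UMI, with means of 8.53 and 7.56 UMIs per cell. For Klf4 the shares were 72.7% (69.7 to 75.4%) and 62.6% (60.4 to 64.9%), and without thinning 87.3% and 73.3%. Early-response genes such as Fos and Junb, listed as a possible sign of handling, were lower too. Their summed level in EC-like cells was 9132 CPM (young) and 4287 CPM (old). The part of handling in this was not tested. Of these 18 genes, 12 were at least 2-fold lower, against 2% of all genes. Their part in the lower Klf2 and Klf4 was not tested.

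Nos3 was level between the libraries, at 328 and 327 CPM, with a log2 ratio of -0.01 (-0.07 to 0.06). A Nos3 UMI was held by 59.1% (55.9 to 62.2%) of young and 61.5% (59.2 to 63.7%) of old EC-like cells at equal depth. The enzyme that frees active endothelin, Ece1, went from 636 to 520 CPM (log2 ratio -0.29, -0.34 to -0.24). Of the prostacyclin pathway, Ptgis had a log2 ratio of -0.30 (-0.35 to -0.25) and Ptgs1 of -0.14 (-0.20 to -0.08). Intervals thus lay below 0 for Klf2, Klf4, Edn1, Ece1, Ptgis and Ptgs1. The share of all genes with such an interval was not counted, so this is not read as a trait of the set. Under a stricter cell filter, with more genes and a smaller mitochondrial share required (1036 young and 1451 old EC-like cells), the Klf2 interval reached 0 (-0.02, -0.05 to 0.00), Klf4 came to -0.22 and Nos3 was higher in old (0.12, 0.05 to 0.19).

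Cells rich in Edn1 were a smaller share of the old library. At equal depth, 42.4% (39.3 to 45.6%) of young and 30.5% (28.4 to 32.6%) of old EC-like cells held an Edn1 UMI, against 11.3% and 12.6% of fibroblast-like cells. Cells with 4 or more Edn1 UMIs were 82 of 980 (8.37%) in young and 27 of 1828 (1.48%) in old, and they held 48.0% and 15.8% of all Edn1 UMIs. The variance of Edn1 was 3.4 times its mean in young cells and 1.86 times in old cells, while for Klf2 these ratios were 3.06 and 3.19. The Edn1 ratio also depended on which cells were called EC-like. With doublet calls kept, the clustering named 653 young cells EC-like, of which 7.81% were of the first subtype described below, and the Edn1 log2 ratio was -0.12. In the 424 young and 982 old EC-like cells with no UMI of a smooth muscle or platelet marker, of which 20.5% and 14.1% were of the first subtype, it was -0.66.

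Gucy1a3 encodes a subunit of the receptor for nitric oxide, best known from smooth muscle. It gave 17 UMIs in 13 young EC-like cells (1.69 CPM, 0.985 to 2.71) and 167 UMIs in 141 old ones (11.8 CPM, 10.1 to 13.8), a log2 ratio of 2.81 (2.08 to 3.62). At equal depth its share was 0.510% of young and 3.45% of old EC-like cells, against 0% of 222 and 0.640% of 469 fibroblast-like cells. Other old classes were as high by CPM on few UMIs: T or NK-like cells gave 5 UMIs (12.8 CPM, 4.15 to 29.8) and unnamed cells 7 (12.4 CPM, 4.98 to 25.5). Only 18 of the 141 old cells held more than 1 UMI. Its partner subunit Gucy1b3 gave 2 UMIs in young and 35 in old EC-like cells, and the downstream kinase Prkg1 25 and 126 (2.49 and 8.92 CPM, log2 ratio 1.84, 1.22 to 2.52).

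Smooth muscle and platelet markers were looked at beside Gucy1a3. The 11 old smooth muscle-like cells held 10 Gucy1a3 and 10 Gucy1b3 UMIs (153 CPM each), and the young library had no such class. Summed over 6 smooth muscle markers, EC-like cells stood at 330 CPM in young, with 1 marker at 0, and 337 CPM in old, with none at 0. Old EC-like cells with a Gucy1a3 UMI stood at 245 CPM of smooth muscle markers and 16.2 CPM of platelet markers, and those without one at 345 and 20.8 CPM. The same cells had similar endothelial marker sums (9099 and 9006 CPM) and differed in depth, with medians of 8044 and 4819 UMIs. In EC-like cells with no UMI of any smooth muscle or platelet marker, Gucy1a3 gave 7 young and 55 old UMIs, a log2 ratio of 2.30. Of these cells, 20.5% (young) and 14.1% (old) were of the first subtype, against 42.0% and 22.3% of all EC-like cells. The part of smooth muscle, platelet or free RNA in the Gucy1a3 UMIs was not tested.

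**Figure D2:**
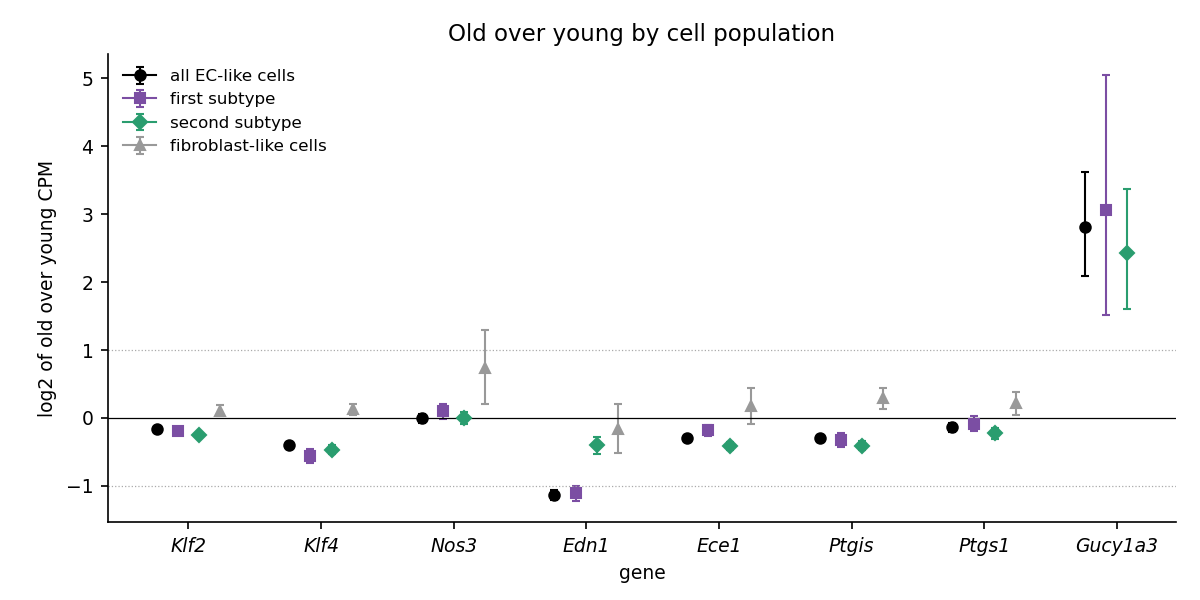
Log2 ratio of old over young CPM for the 8 genes with at least 100 UMIs in EC-like cells, in all EC-like cells, in each endothelial subtype and in fibroblast-like cells, drawn where both libraries together gave at least 20 UMIs. Bars are exact 95% intervals for counting error, and dotted lines mark 2-fold. Edn1 lies below the lower line in all EC-like cells and in the first subtype, but not in the second, and Gucy1a3 lies above the upper line.

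In fibroblast-like cells none of the 7 genes with at least 100 UMIs was 2-fold higher or lower, where 1.59% of 5606 genes were higher and 2.66% lower. For both KLF factors the ratio there was above 0. Klf2 had a log2 ratio of 0.11 (0.02 to 0.19), Klf4 of 0.13 (0.05 to 0.21), Ptgis of 0.29 (0.14 to 0.44) and Ptgs1 of 0.21 (0.05 to 0.38). Nos3 had the largest ratio, 0.74 (0.20 to 1.30) on 41 and 100 UMIs, Ece1 had 0.18 (-0.09 to 0.45) and Edn1 -0.16 (-0.52 to 0.21). Endothelial marker sums in these cells were also higher in the old library, at 510 and 1028 CPM, and fibroblast marker sums lower, at 20335 and 12143 CPM. Their part in these ratios was not tested. The median over the 7 genes was 0.18 and over all genes -0.09.

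EC-like cells fell into a first subtype, marked by Coch, Sost and Adra2a, and a second, marked by Bcan, Isl1 and Frzb. The first held 454 young (42.0%) and 532 old (22.3%) cells, and the second 627 and 1856. In the old library the second was made of 2 clusters: 848 cells led by Hsd11b1, Colec11 and Tac2, and 1008 cells led by Rspo1, Ramp3 and Tspan11. The latter barely leaned to the second marker set, with a score of 0.01 where 0 was the limit set after the clusters were seen.

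Edn1 was higher in the first subtype than in the second, and Klf2 and Klf4 were lower in it. In the young library Edn1 had 550 CPM in the first and 174 CPM in the second subtype (log2 ratio 1.66, 1.55 to 1.77). In the old library it had 255 and 131 CPM (0.96, 0.83 to 1.08). Klf2 was at 2344 against 2969 CPM in young (log2 ratio -0.34) and 2052 against 2499 CPM in old (-0.28). Klf4 was at 466 against 602 CPM in young (-0.37) and 317 against 434 CPM in old (-0.45). Nos3 leaned the other way, at 345 against 312 CPM in young (0.14) and 369 against 313 CPM in old (0.24).

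Of the genes of the set with at least 100 UMIs, 1 of 7 in young (Edn1) was at least 2-fold higher in the first subtype and none lower. None of 8 passed 2-fold in old. Over all genes, 1.06% of 8133 were higher and 1.45% lower in young, and 0.830% of 9035 higher and 1.44% lower in old. The medians of the set were -0.29 in young and -0.19 in old, and of all genes -0.02 in both. Smooth muscle marker sums were also higher in the first subtype, at 427 against 240 CPM in young and 430 against 307 CPM in old. Mylk, 1 of those 6 markers, is itself a leading gene of the first subtype.

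In the old library, much of the variation lay inside the second subtype. The cluster of 848 cells had Edn1 at 210 CPM and the cluster of 1008 cells at 74.5 CPM (log2 ratio 1.5). Klf4 was at 261 and 560 CPM (-1.10), Klf2 at 1846 and 2973 CPM (-0.69) and Nos3 at 252 and 356 CPM (-0.50). Edn1 was thus at least 2-fold higher and Klf4 at least 2-fold lower in the smaller cluster, 1 each of 8 genes, where 0.5% of 8400 genes were higher and 0.583% lower. Against the smaller cluster alone, the first subtype had Klf2 0.15 and Klf4 0.28 higher on the log2 scale, so the order of Klf2 and Klf4 between subtypes in the old library rests on the larger cluster. The smaller cluster had a median of 3824 UMIs per cell, fibroblast marker sums of 588 CPM and smooth muscle marker sums of 528 CPM, and the larger 5618.5, 275 and 146. Their part in these differences was not tested.

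**Figure D3:**
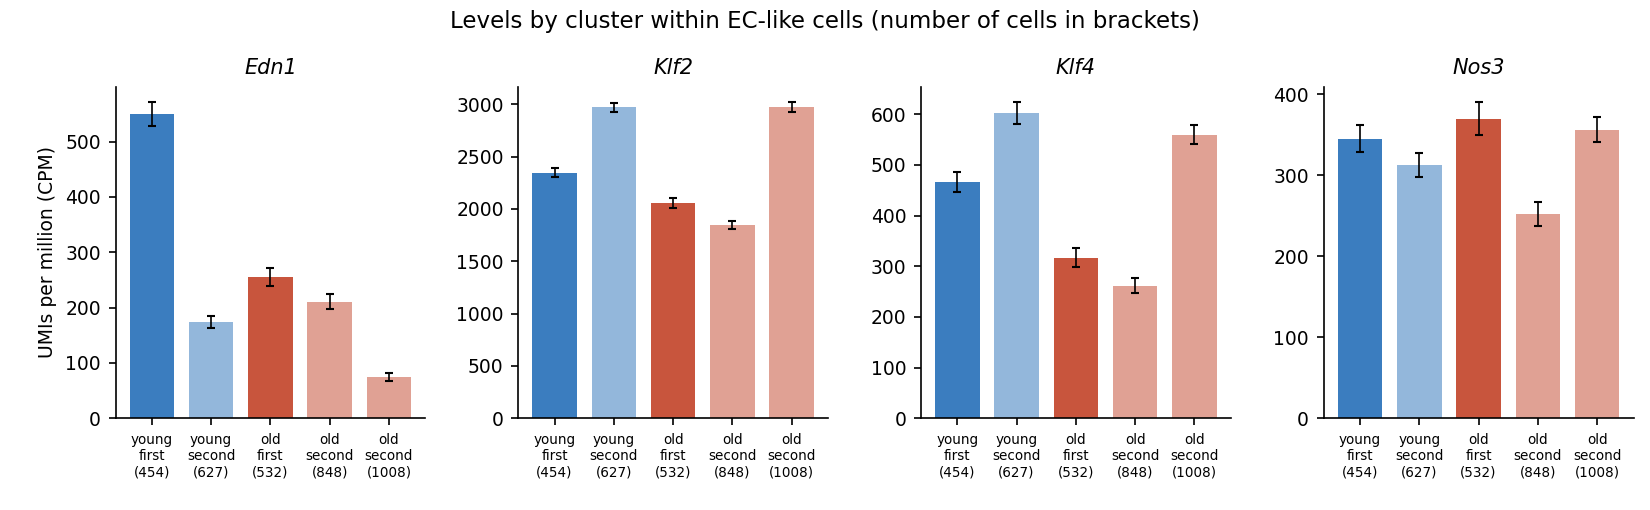
Levels of Edn1, Klf2, Klf4 and Nos3 in CPM in the 5 clusters within EC-like cells, young in blue and old in red, with cell numbers in brackets and exact Poisson 95% intervals. The 2 old clusters of the second subtype differ in Edn1 (210 and 74.5 CPM) and, the other way round, in Klf4 (261 and 560 CPM).

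Within the first subtype Edn1 went from 550 to 255 CPM between young and old (log2 ratio -1.11), and within the second from 174 to 131 CPM (-0.40, -0.52 to -0.28). Whether these ratios differ between subtypes was not tested. Of the old second subtype, the cluster of 848 cells had Edn1 at 210 CPM, above the young 174 CPM, and that of 1008 cells at 74.5 CPM. The lower Edn1 of the old second subtype thus rests on the larger cluster, which barely leaned to the second marker set. With the old levels set to the young library's subtype shares of UMIs (48.3% first, against 24.8% in old), old Edn1 came to 191 CPM and the log2 ratio to -0.89. This value also counts the larger cluster in the second subtype. Klf4 had log2 ratios of -0.56 in the first and -0.47 in the second subtype and Klf2 of -0.19 and -0.25. Gucy1a3 was higher in old cells of both, with 4 and 24 UMIs in the first subtype and 13 and 143 in the second (log2 ratio 2.43, 1.61 to 3.37). In the first subtype 1 of 7 genes (Edn1) was at least 2-fold lower and none higher, against 1.71% and 0.785% of 7647 genes. In the second 1 of 8 (Gucy1a3) was higher and none lower, against 1.24% and 1.63% of 9285 genes.

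Across single EC-like cells the clearest pattern was that Klf2 went with Klf4 and against Edn1. To compare cells, each was thinned to 3100 UMIs, which kept 980 young and 1828 old cells, and Pearson correlations of log2(UMIs + 1) were taken within each library. The cells of a library share its source, so the values are descriptions. Klf2 and Klf4 had r = 0.30 in young and 0.35 in old cells, while over all 7642095 pairs of 3910 genes the values from the 1st to the 99th percentile lay between -0.076 and 0.080 in young and between -0.057 and 0.059 in old. Klf2 and Edn1 had r = -0.23 in young and -0.22 in old, and Klf4 and Edn1 -0.085 and -0.163. Nos3 (-0.088 and -0.058), Ptgis (-0.125 and -0.078) and Ptgs1 (-0.079 and -0.065) with Edn1 also lay below that range in both libraries, and Ece1 with Edn1 (-0.038 and 0.027) inside it. Klf2 and Nos3 had 0.074 and 0.092, above the range in the old library and within it in the young. No other of the 21 pairs among 7 genes of the set lay outside the range in both libraries. The weaker of these rest on the draw: with another thinning draw, Edn1 with Ptgis (-0.063) and with Ptgs1 (-0.050) came inside the young range and Nos3 with Edn1 (-0.025) inside the old one.

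Of 3909 other genes ranked by the lower of both libraries' correlations, Klf4 was the most like Klf2, followed by the early-response genes Dusp1 (0.27 in young and 0.26 in old) and Junb (0.24 and 0.24). For Klf4, after Klf2 came Fos (0.28 and 0.26) and Dusp1 (0.29 and 0.26). For Edn1 the most alike were Bmp4, a growth factor of the BMP family (0.36 and 0.30), Apoe, a lipid carrier (0.27 and 0.23), and Fbln5, an elastic fibre protein (0.29 and 0.22). For Nos3 they were Timp3, an inhibitor of matrix proteases (0.16 and 0.16), Eln, the elastin gene (0.15 and 0.14), and Stmn2 (0.12 and 0.13). At the other end, ranked by the higher of both libraries' correlations, Edn1 came last for Klf2, and Klf2 came last for Edn1. Bmp4 was next to last for Klf2 (-0.21 and -0.26), and in the old library its value was below that of Edn1. These opposite ends were chosen for print after their values were seen.

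For Ece1 the most alike were Cgnl1 (0.14 and 0.10), Ace, which makes the constrictor angiotensin II (0.11 and 0.10), and Fn1, fibronectin (0.109 and 0.081). For Ptgis they were Vim (0.10 and 0.10), Cd34 (0.156 and 0.093) and Cytl1 (0.090 and 0.110). For Ptgs1 they were Cytl1 (0.14 and 0.11), Dusp6 (0.075 and 0.070) and Cdc42ep3 (0.072 and 0.067). These values are weak beside those of Klf2 and Edn1.

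**Figure D4:**
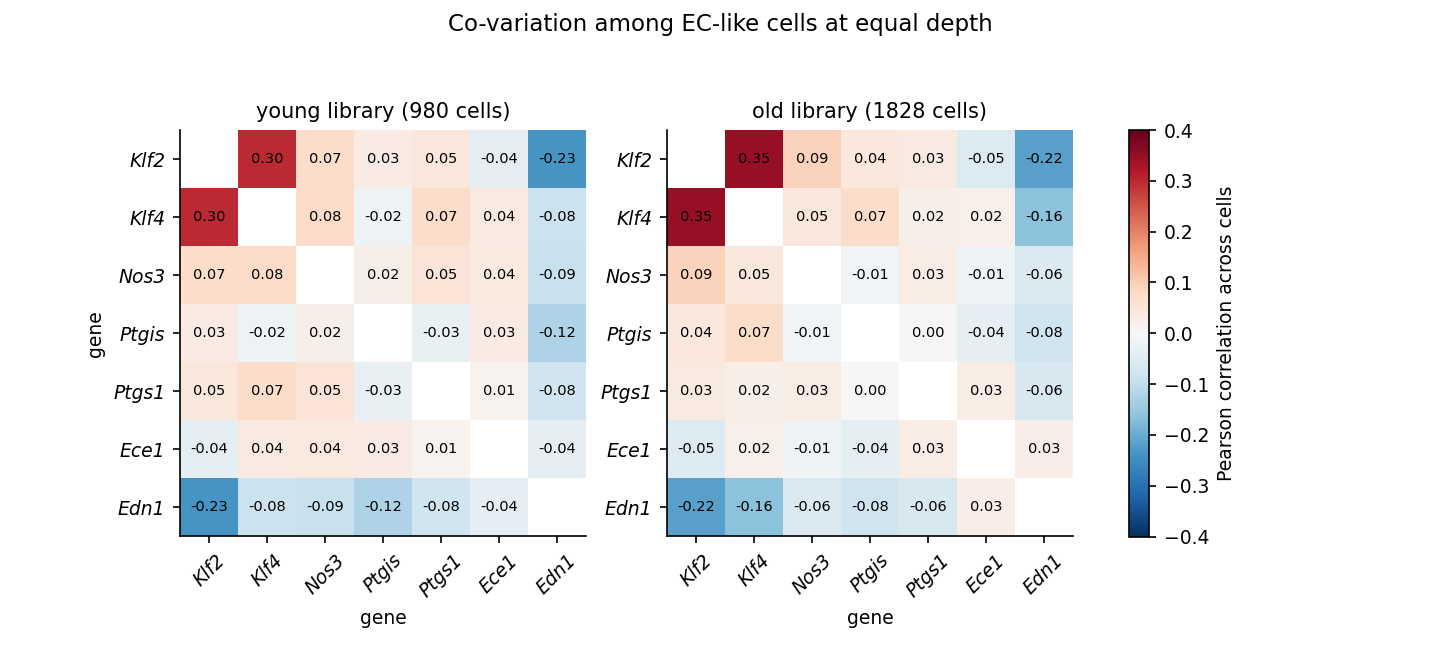
Pearson correlations of 7 genes across EC-like cells thinned to equal depth, young library left (980 cells) and old library right (1828 cells), with gene names on both axes and colour for r. Klf2 with Klf4 (0.30 and 0.35) and Klf2 with Edn1 (-0.23 and -0.22) stand apart from most other pairs.

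The link between Klf2 and Edn1 was seen inside the subtypes. It was -0.24 in the first and -0.14 in the second subtype of the young library, and -0.18 and -0.21 in the old. Over the 3 old clusters it ran from -0.180 to -0.089. Nos3 and Edn1 were further apart within the first subtype (-0.22 in young and -0.12 in old) than over all cells. The sum of early-response genes went with Klf2 (0.28 in young and 0.40 in old) and Klf4 (0.35 and 0.37), and less with Edn1 (0.068 and -0.081). With that sum taken out by regression, Klf2 and Klf4 were at 0.22 in young and 0.23 in old, and Klf2 and Edn1 at -0.26 and -0.20. The part of the early response in these links was not tested. With depth and mitochondrial share taken out, Klf2 and Edn1 were at -0.26 and -0.22.

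The shares show the same pattern in plain numbers. Young EC-like cells with 0 to 3 Klf2 UMIs (157 cells) held an Edn1 UMI in 59.9% of cases, those with 4 to 7 in 45.9%, with 8 to 11 in 38%, with 12 to 15 in 37.8%, and those with 16 or more (95 cells) in 22.1%. In the old library the shares were 44.7% (360 cells), 33.1%, 24.3%, 19.8% and 15.5% (129 cells). The old share was the lower at each of the 5 Klf2 levels, and the intervals of both libraries overlap at the highest level alone. Inside each subtype the old share was also the lower at each level compared, but most intervals overlap. In the second subtype they overlap at all 5 levels, with 38.4% (27.2 to 50.5%) in young and 37.9% (31.9 to 44.1%) in old at 0 to 3 Klf2 UMIs. In the first they overlap at each level compared except 4 to 7. The part of the subtype mix in the pooled gap was not tested. Klf4 went up over the same steps, from 58.0% to 83.2% in young, with a peak of 87.2% at 12 to 15 UMIs, and from 45.6% to 87.6% in old. Nos3 went from 52.9% to 61.1% in young and from 55.3% to 71.3% in old.

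Cells of the first subtype were fewer at high Klf2, from 53.5% to 23.2% of young and from 28.9% to 10.9% of old cells. Inside the first subtype of the young library the Edn1 share still went from 78.6% (84 cells) at 0 to 3 Klf2 UMIs to 31.8% (22 cells) at 16 or more, and inside the second from 38.4% to 19.2%. In the old first subtype it went from 61.5% to 43.6% at 12 to 15 UMIs (39 cells), and in the second from 37.9% to 15.7%. Early-response genes also differed over the steps, with means of 18.7 to 41.5 UMIs per cell in young and 8.45 to 21.9 in old. Median depth before thinning ran from 7037 to 8417.5 UMIs in young and from 5384 to 6756.5 in old, lowest at 16 or more Klf2 UMIs. With log2 depth before thinning, Klf2 had r = 0.0097 in young and -0.098 in old. The part of depth and early response in these steps was not tested.

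Read from the side of Edn1, cells with 4 or more Edn1 UMIs had lower Klf2 and Klf4 means than cells without Edn1. A smaller share of them held a Nos3 UMI. Young cells without an Edn1 UMI had a mean of 9.40 Klf2 UMIs, and those with 4 or more had 5.65. In old cells these means were 8.20 and 4.22. Nos3 was seen in 60.1% of young cells without Edn1 and 39.0% of those with 4 or more UMIs, and in 62.4% and 33.3% of old ones. At 1 and at 2 to 3 Edn1 UMIs its share was 65.6% and 58.4% in young and 61.6% and 59.0% in old. Bmp4 went the other way, with means of 1.87 and 4.68 UMIs in young and 1.37 and 4.96 in old. Of the cells with 4 or more Edn1 UMIs, 84.1% in young and 59.3% in old were of the first subtype.

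**Figure D5:**
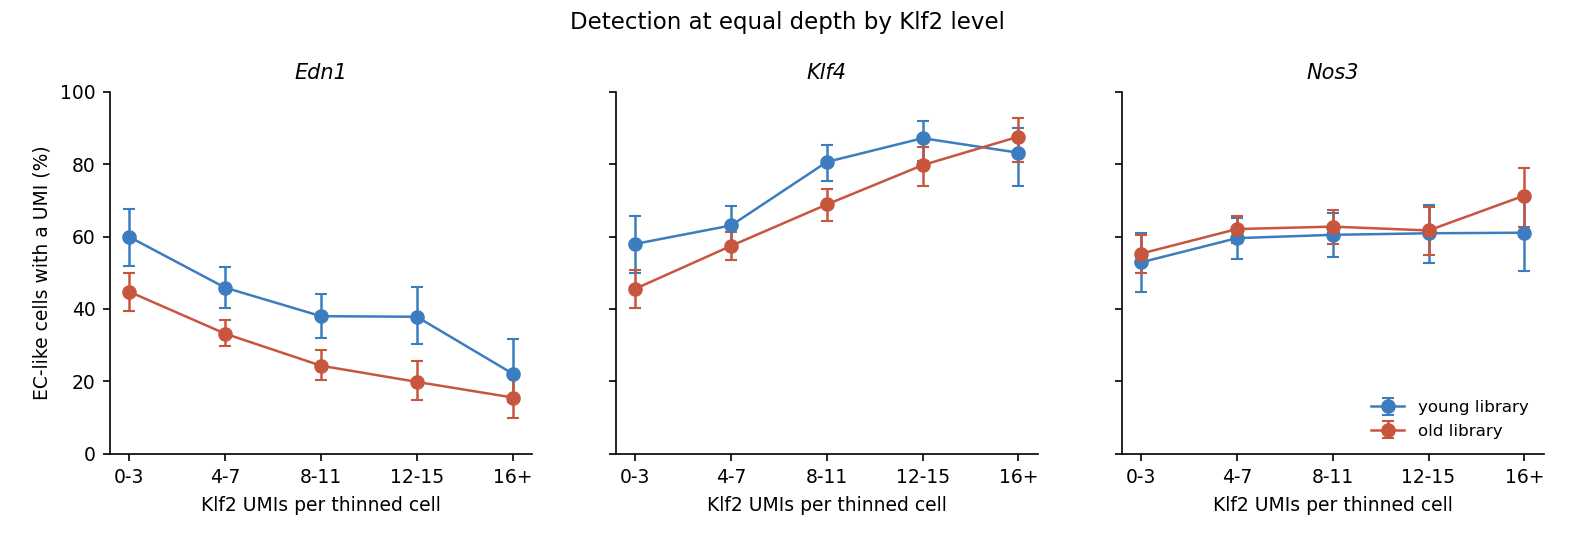
Share of EC-like cells with an Edn1, Klf4 or Nos3 UMI (y axis, %) by Klf2 UMIs per cell at 3100 UMIs (x axis), young in blue and old in red, with exact binomial 95% intervals. The Edn1 share goes down from 59.9% to 22.1% in young and from 44.7% to 15.5% in old as Klf2 goes up, and the Klf4 share goes up.

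Genes of the same pathways outside the set were counted by the same 2-fold rule between the libraries in EC-like cells. Beside them, 1.32% of all 10025 genes with at least 100 UMIs were at least 2-fold higher and 2% lower. No list was tested against that share. Of 16 flow-sensing and MEK5 cascade genes none was 2-fold higher or lower, and their median log2 ratio was 0.17. The extremes by the rule for naming were Mef2c (60.8 and 90.5 CPM, 0.57) and Mef2a (65.6 and 87.9 CPM, 0.42), which lie upstream of Klf2, and Trpv4, a calcium channel (56.4 and 45 CPM, -0.33), and Heg1 (1231 and 1048 CPM, -0.23). Among 9 known KLF target genes with 100 UMIs, the water channel gene Aqp1 was 2-fold higher (9.95 and 25.1 CPM, 1.34) and none was 2-fold lower, with a median of 0.36. With classes by a marker rule per cell, the median was 0.19 and 0 genes were 2-fold higher. The prostaglandin carrier Slco2a1 was higher (340 and 514 CPM, 0.60), and the receptor genes Tek (547 and 400 CPM, -0.45) and S1pr1 (265 and 212 CPM, -0.32) were lower. The median of the target genes was thus above that of all genes (0.06), and the values of Klf2 and Klf4 below it.

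Between the subtypes most target genes were lower in the first. Of 8 with 100 UMIs, 3 were at least 2-fold lower in the first subtype of the young library (Slco2a1, Cyp1b1 and Aqp1), with a median of -0.41. In the old library 1 was (Cyp1b1), with a median of -0.37, and none was 2-fold higher in either. Over all genes, 1.45% of 8133 were lower in young and 1.44% of 9035 in old. Among the target genes, 1 of 8 lay above 0 in young (S1pr1, 0.12) and 2 of 8 in old (Tek, 0.19, and S1pr1, 0.06). Slco2a1 stood at 206 CPM in the young first and 465 CPM in the young second subtype. Calcrl, the receptor of the dilator adrenomedullin, was also lower in the first subtype, with log2 ratios of -1.95 in young and -1.41 in old.

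Of 14 nitric oxide and cyclic GMP genes with 100 UMIs, Prkg1 was 2-fold higher in the old library and none 2-fold lower, with a median of -0.04. Over all genes, 1.32% were 2-fold higher and 2% lower. The gene of the arginine-making enzyme Ass1 was lower (290 and 150 CPM, -0.95), as was the arginine carrier Slc7a1 (43.7 and 34.2 CPM, -0.35), and Hsp90aa1, a chaperone of eNOS, was higher (204 and 252 CPM, 0.30). Cav1, which binds and holds back eNOS, was at 1392 and 1350 CPM. None of the 6 prostanoid genes with 100 UMIs passed 2-fold (median 0.10), nor did Npr1 and Npr2 of the natriuretic peptide list (0.12) or Ece2, the only counted endothelin gene outside the set (0.17). Among 6 other vasoactive genes (median -0.17), Ace was at 838 and 663 CPM (-0.34), the potassium channel gene Kcnn3 at 26.3 and 18.8 CPM (-0.48) and Kcnj2 at 5.37 and 8.78 CPM (0.71).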

How the data were processed

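The authors deposited raw UMI counts, 1 table per library with genes in rows and barcodes in columns. Per the submitters' processing notes they used Cell Ranger and GRCm38, and the annotation is not given in the sources used here. Members and lists were chosen with earlier results of these data known.

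Barcodes below 200 genes or above 10% mitochondrial UMIs were left out (1 young and 72 old), and 6 Scrublet calls per library removed. Cells were clustered jointly without batch correction in scanpy 1.11.5 (2000 variable genes, 30 components, 15 neighbours, Leiden resolution 0.5), leaving out the 10 genes and their pathway genes. Clusters were named from fixed markers. EC-like cells were clustered again within each library and assigned to a subtype by 3 markers each.

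UMIs were summed per class and scaled to its total (CPM), with exact Poisson intervals. Ratios carry exact conditional binomial intervals, and shares Clopper-Pearson intervals. Zeros are given with the limit that 3 counts allow. No test was made, and the code was tested on simulated data. Cells were thinned to 3100 UMIs, the 25th percentile of old EC-like cells, which left out 101 young and 560 old EC-like cells. Named list genes are the 2 highest and 2 lowest by the interval bound nearest to 0; Cav1, Calcrl, Cyp1b1, Ednra, Gucy1b3 and the subtype values were chosen after their values were seen. Ppap2b is not analysed here. Promoters come from RefSeq.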

Additional observations from a re-analysis of the deposited data

Results flagged for a closer look

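Klf2, Klf4, Ptgis and Ptgs1 had opposite directions between the libraries in EC-like and fibroblast-like cells. The log2 ratios of old over young were -0.16 and 0.11 for Klf2, -0.40 and 0.13 for Klf4, -0.30 and 0.29 for Ptgis, and -0.14 and 0.21 for Ptgs1, EC-like first. With 1 library per age the difference between the classes was not tested. In fibroblast-like cells endothelial marker sums were 510 CPM (young) and 1028 CPM (old), with fibroblast marker sums 20335 and 12143 CPM; their part in these ratios was not tested. The fibroblast-like sums rest on 239 young and 572 old cells, the EC-like sums on 1081 and 2388.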

How the results depend on the processing

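No paired analysis was possible because each age has 1 library. Over 14 alternatives in EC-like cells the log2 ratio of old over young ran from -0.31 to -0.02 for Klf2, from -0.57 to -0.19 for Klf4, from -1.37 to -0.12 for Edn1, from -0.07 to 0.20 for Nos3 and, over 13, from 2.10 to 2.91 for Gucy1a3. The count of genes at least 2-fold lower was 0 in place of 1 with doublet calls kept (Edn1 -0.12), with old levels at the young subtype shares (-0.89), and in cells with no UMI of other classes' markers (-0.41, on 29 and 8 UMIs), of smooth muscle or platelet markers (-0.66), or of these without Mylk (-0.93). The latter 2 and the setting of subtype shares were chosen after seeing the data. The count of genes at least 2-fold higher was 0 in place of 1 in those 3 marker-free subsets and at equal depth, where Gucy1a3 had fewer than the 100 UMIs needed. Between subtypes of the old library, Klf2 reversed to 0.040 at Leiden resolution 1.0 and to 0.15 with a subtype score over 0.5, an alternative added after seeing the data that leaves out the larger old cluster, and Klf4 to 0.014 and 0.28. Edn1 came to 0.52 and 0.28 there. With subtypes by 3 markers per cell, Klf2 was at -0.10 in young and -0.14 in old, and Edn1 at 1.37 and 0.73. Thinned to 2000 UMIs, Klf2 with Klf4 had r of 0.21 in young and 0.28 in old, Klf2 with Edn1 -0.15 in young, and Nos3 with Ptgs1 reversed to -0.013 in young. In the largest young subtype Klf2 with Edn1 had -0.14. With early-response genes taken out, an alternative added after seeing the data, Klf2 with Klf4 had 0.22 and 0.23. Of 252 correlations under alternatives, 233 moved by less than 0.05, 18 by more and 1 reversed, and the cause was not tested. For weak pairs a move of less than 0.05 can change the sign, so this count does not show that they are stable. Ptgis with Ptgs1 in young, at -0.031, came to as much as 0.017. Depth limits Npr3 and Ednrb in EC-like cells and, below 100 UMIs, Gucy1a3 in subsets.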
